A study of Mus musculus with 4 samples.

Results

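Dppa (developmental pluripotency associated) and Prame (preferentially expressed antigen in melanoma) genes were examined in RNA-seq of mouse embryonic stem cells (ESCs) of the AB2.2 line. The 9 members were chosen by symbol from the 55335 genes counted: Dppa2, Dppa3, Dppa4, Dppa5a, Pramel6, Pramel7, Pramef12, Pramef8 and Pramef6. AB2.2 cells of the control and the lactate group grew on mouse embryonic fibroblast feeders in medium that held 1000 U/ml leukemia inhibitory factor and 15% fetal bovine serum, with the kinase inhibitors CHIR99021 at 3 µM and PD0325901 at 1 µM. The lactate group was in addition kept in 50 mM lactate for 24 h. There were 2 libraries of each group, and the feeders were not stated to have been removed before RNA extraction. The labels give no genotype difference between the groups, and the comparison asks how the transcriptome of this 1 cell line changed with lactate supplementation.

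The Dppa symbol joins genes by where they are expressed and not by a shared origin. Dppa2 and Dppa4 are SAP domain proteins that bind chromatin as a pair, keep bivalent promoters poised and help to switch on Dux and the genes of the 2-cell embryo. Dppa3 (Stella) is a maternal factor of oocytes and primordial germ cells that binds UHRF1, the cofactor of maintenance DNA methylation, and keeps it from chromatin. Dppa5a is a KH domain RNA-binding protein used as a marker of naive ESCs. Prame family proteins are leucine-rich repeat proteins, many of which act as substrate receptors of cullin 2 ubiquitin ligases. Pramel7 is known to target UHRF1 for degradation in naive cells, Pramel6 is its neighbour and close relative, and Pramef12 is known from spermatogonial stem cells.

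Positions are from GENCODE release M21 on GRCm38. Dppa4 (ENSMUSG00000058550.15, chr16:48283733-48294237) and Dppa2 (ENSMUSG00000072419.5, chr16:48303908-48319723) lie on the forward strand with 9.67 kb between them. Dppa3 (ENSMUSG00000046323.8, chr6:122626410-122630272, forward strand) lies between Gdf3, which ends 16.3 kb before it, and the pluripotency factor gene Nanog, which starts 77.2 kb after it. Dppa5a (ENSMUSG00000060461.5) is at chr9:78367052-78368177 on the reverse strand. Pramel7 (ENSMUSG00000025839.3, chr2:87489087-87497093, reverse strand) and Pramel6 (ENSMUSG00000025838.12, chr2:87506565-87510872, forward strand) point away from each other across a gap of 9.47 kb. The 3 Pramef members lie in one region of chromosome 4: Pramef8 (ENSMUSG00000046862.14, chr4:143412426-143421091, forward), Pramef6 (ENSMUSG00000078512.8, chr4:143894237-143900380, reverse) and Pramef12 (ENSMUSG00000028591.11, chr4:144391674-144408464, reverse). All 9 are annotated as protein coding.

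The 250 bases upstream of the transcription start are shown for Pramef12, the member with the smallest p-value, and for Pramel6, whose difference did not pass the test. They are taken from RefSeq on GRCm38.p6, in which Pramef12 is named Pramel13, at chr4:144408465-144408714 on the reverse strand and chr2:87506315-87506564 on the forward strand. Capitals mark CpG dinucleotides, the sites of DNA methylation.
Pramef12: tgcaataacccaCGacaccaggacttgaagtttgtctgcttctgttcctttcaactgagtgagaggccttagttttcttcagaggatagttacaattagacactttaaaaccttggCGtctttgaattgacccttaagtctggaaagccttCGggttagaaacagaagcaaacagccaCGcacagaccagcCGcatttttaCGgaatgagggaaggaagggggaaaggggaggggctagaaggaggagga
Pramel6: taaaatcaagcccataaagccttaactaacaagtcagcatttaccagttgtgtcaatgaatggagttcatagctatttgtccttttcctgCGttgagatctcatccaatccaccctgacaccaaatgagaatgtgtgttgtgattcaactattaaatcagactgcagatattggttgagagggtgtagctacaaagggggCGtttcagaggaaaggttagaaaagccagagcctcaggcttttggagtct
The Pramef12 window held 6 CpG, equal to the median of 6 over 32851 promoter windows of the same length, and the Pramel6 window held 2. Windows were also at hand for Pramel7 and Pramef6, named Pramel11 in RefSeq, and each held 1 CpG. The Pramel7 window (chr2:87492419-87492668, reverse strand) precedes a RefSeq start that lies inside the GENCODE span of the gene and overlaps an exon of longer transcripts there, so its values are not those of sequence upstream of the whole gene. The GC content was 47.2% for Pramef12, 42.0% for Pramel6, 43.2% for Pramel7 and 42.0% for Pramef6, against a median of 52.4% over all windows. None of the 4 windows held, on either strand, the E-box letters CACGTG, the E2F-like letters GCGGGA or the octamer letters ATGCAAAT, which were in 6.02%, 16.9% and 1.6% of all windows. No window was used for Pramef8, Dppa2, Dppa3, Dppa4 and Dppa5a.

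The libraries held between 18067562 and 19077885 reads counted on genes. Mitochondrial transcripts took 5.48% and 5.72% of these in control 1 and lactate 1, but 2.43% and 2.82% in control 2 and lactate 2. The 6 ESC markers Pou5f1, Sox2, Nanog, Zfp42, Esrrb and Utf1 were above 1 FPKM (RSEM's level per transcript length and library size) in every library, with a summed level of 1899 to 2187 FPKM. Of 10 fibroblast markers, 9 were above 1 FPKM in every library, with a summed level of 139 to 176, and their range in the control libraries contained both lactate values. The 6 primitive endoderm markers summed to 2.16 and 2.94 FPKM in control and 3.93 and 4.44 FPKM in lactate libraries, and the 5 formative and primed markers to between 39.4 and 43.6. Their part in the results on the members was not tested. The RNA is of whole cultures, in which fewer cells of a type and less RNA per cell cannot be told apart.

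In control cells the members ran from percentile 14.2 to percentile 99.9 in expression per length, among the 26211 genes with an FPKM above 0 in any library. Dppa5a stood at 1832 and 3414 FPKM in the 2 control libraries, in places 43 and 19 among all genes. Pramef12 followed at 44.2 and 49.0 FPKM, Dppa4 at 34.8 and 50.1, and Dppa2 at 42.1 and 33.1. The control values of Pramef12 overlapped those of Dppa4, and those of Dppa4 overlapped Dppa2, so that these neighbours did not differ beyond the spread between libraries. Pramef8 had 7.14 and 7.46 FPKM, Pramel6 5.60 and 3.71, Dppa3 5.92 and 2.90, and Pramel7 1.88 and 3.33. Pramel6 overlapped Dppa3 and Dppa3 overlapped Pramel7, whereas Pramef8 was above all of these. Pramef6 was the lowest member, at 0.00 and 0.05 FPKM. The order was the same by TPM, RSEM's other level per length. In the lactate libraries Dppa4 and Dppa2 moved to places 2 and 3 and Pramef12 to place 4, and Dppa3 moved from place 7 to place 5.

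**Figure D1:**
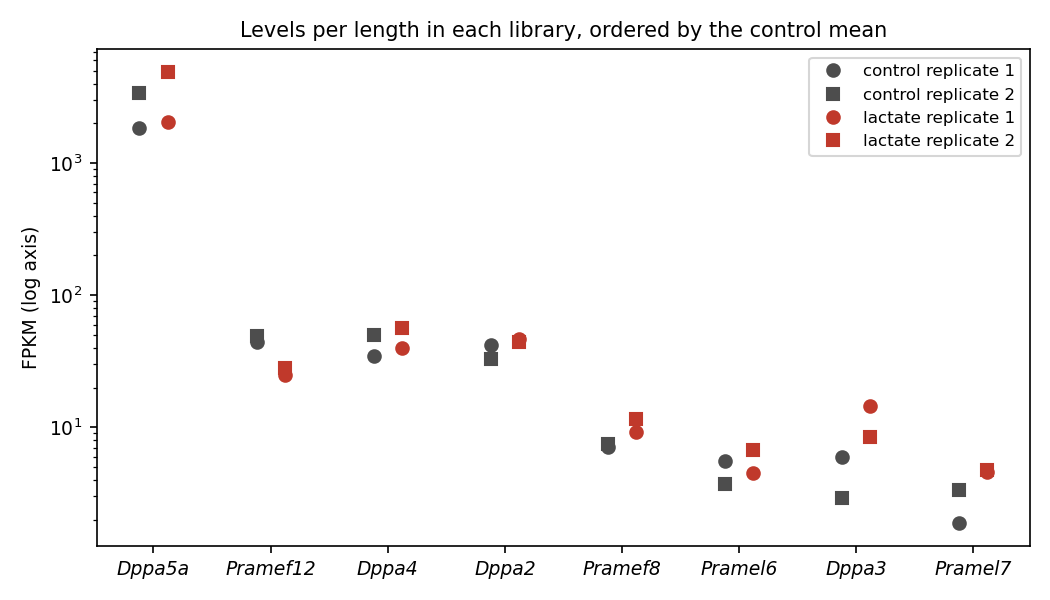
FPKM (y axis, log scale) of 8 members in each of the 4 libraries, ordered by their control mean; grey points are control and red points lactate libraries, circles replicate 1 and squares replicate 2. Pramef6, at most 0.24 FPKM, is left out; Dppa5a lies far above the rest, and Pramef12 has both lactate points below both control points.

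Between lactate and control cells, 8 members passed the filter on low counts and were tested with edgeR's quasi-likelihood test on raw counts; Pramef6 was too thinly covered. A gene was called where the Benjamini-Hochberg adjusted p over 18661 genes was under 0.05 and the change more than 2-fold. No member was called higher and none was called lower, against 0.552% and 0.348% of all tested genes. At an adjusted p under 0.05 with no limit on the fold, 1 member, Pramef12, was lower and 0 were higher, against 0.423% lower and 0.568% higher among all genes. At an unadjusted p under 0.05 there were 3 members higher (Dppa3, Pramel7 and Pramef8) and 1 lower, where 11.7% of all genes were higher and 11.4% lower. DESeq2 without a replicate term likewise called 0 members in either direction, against 1.14% of all genes called higher and 0.868% called lower. Of the 8 members, 4 had both lactate libraries above both control libraries and 1 had both below, against 27.0% and 25.9% of all genes. The fitted log2 fold change was above 0 for 7 of 8, with a median of 0.41 over the members and 0.010 over all tested genes. With 2 libraries against 2, an exact permutation test of a single gene cannot give a two-sided p below 0.333, so the p-values rest on the spread that edgeR shares across genes. The labels do not say that the libraries came from separate cultures, and the p-values then measure only the spread between these libraries, which may be technical.

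**Figure D2:**
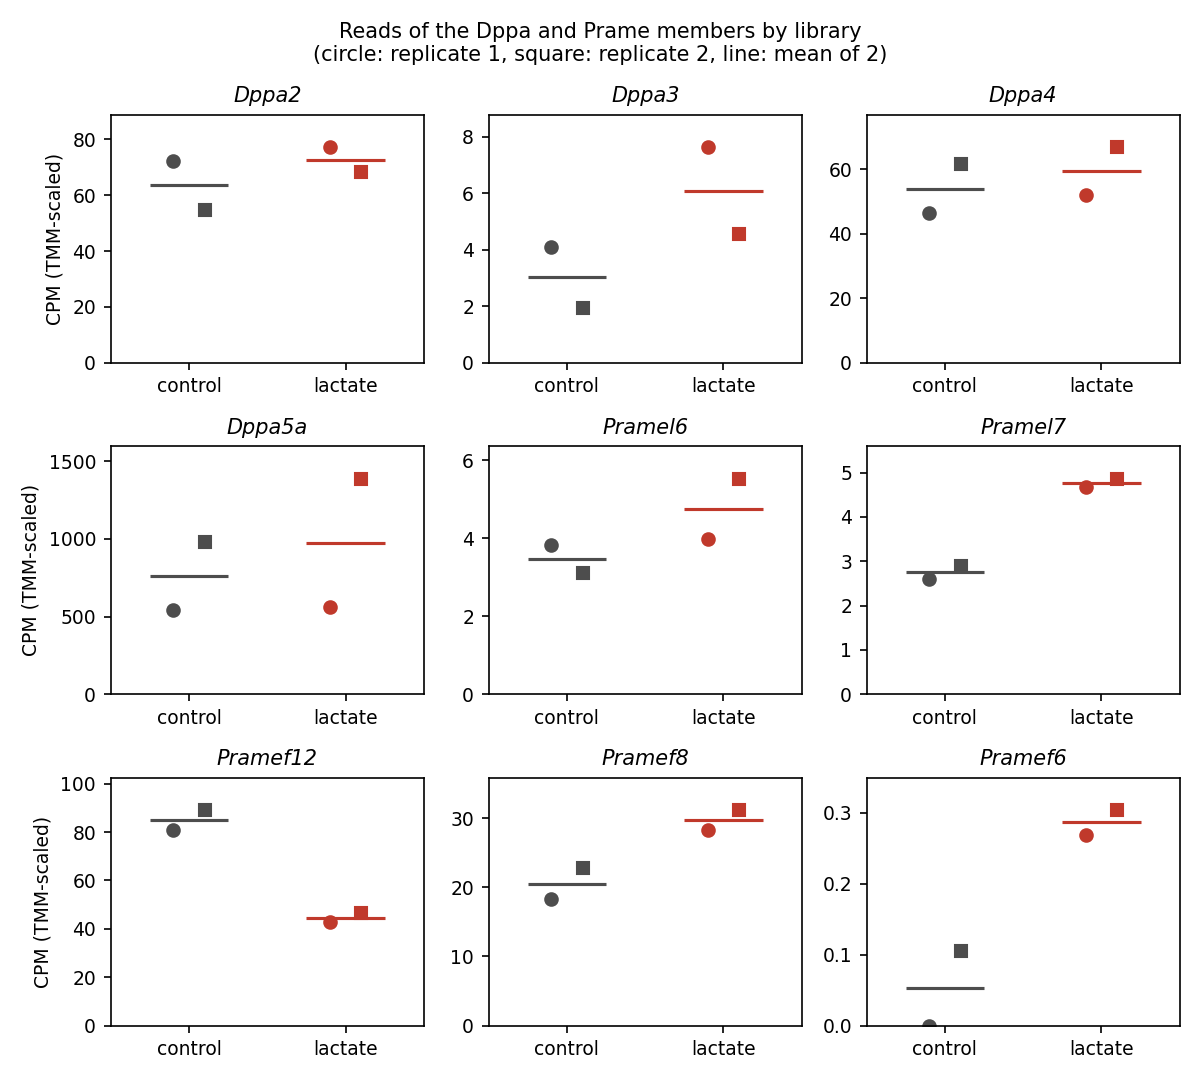
CPM, raw reads scaled to a common library size with TMM factors (y axes starting at 0), of the 9 members in the control (grey) and lactate (red) libraries; circles are replicate 1, squares replicate 2, and lines the mean of 2. The groups do not overlap for Dppa3, Pramel6, Pramel7, Pramef12, Pramef8 and Pramef6, and Pramef12 is the only one of these with lower lactate values.

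Pramef12 was the Prame member with the most reads. Its level in CPM was 80.7 and 89.1 in the control and 42.9 and 46.4 CPM in the lactate libraries, from 797 to 1691 reads per library. Both lactate libraries were far below both control libraries, and the libraries of each group lay close together. The mean was 84.9 ± 5.98 CPM in control and 44.7 ± 2.52 CPM in lactate cells (SD, n = 2). The fitted log2 fold change was −0.93 ± 0.13 (SE; edgeR, adjusted p = 0.0467), 1.90-fold lower with lactate and thus short of the 2-fold limit. The adjusted p was under 0.05 in 9 of 17 alternative analyses, all of which gave a negative fold change. Those under 0.05 include 2 fits with a replicate block, a pairing that the labels do not establish. With edgeR on the RSEM expected counts the adjusted p was 0.0532. In limma fits on log2 FPKM it ranged from 0.234 to 0.280. The log2 fold change was −1.01 without control 1 and −0.86 without control 2. An antisense gene, Pramef12os (chr4:144404868-144406301, forward), overlaps Pramef12 and had 4 to 22 reads. The strand setting of the counts is not stated. Of the 2572 50-base sequences in Pramef12 transcripts, 0 occur, on either strand, in transcripts of another gene. The annotated transcripts of the pair thus share no such stretch. Whether reads from introns of Pramef12 were counted on Pramef12os was not tested. RSEM expected counts of Pramef12 were 0.918 to 0.925 of the raw counts in the 4 libraries.

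Pramef8, in the same region of chromosome 4, stood at 18.3 and 22.8 CPM in control and 28.3 and 31.2 CPM in lactate libraries. Both lactate values were higher, in the direction opposite to Pramef12. The log2 fold change was 0.54 ± 0.17, which did not pass the correction (adjusted p = 0.144; unadjusted p = 0.0201). The ratio of Pramef12 to Pramef8, taken per length from FPKM, was 6.19 and 6.57 in control and 2.72 and 2.44 in lactate libraries. The pair was set side by side with its opposite directions known, so the ratio is a description and adds no support to them. The 5 Prame members summed to 58.8 and 63.5 FPKM in control and 43.4 and 51.1 FPKM in lactate libraries. Pramef12 gave 75.1% and 77.1% of that sum in control and 57.6% and 54.7% in lactate libraries, so that its lower level set the direction of the sum.

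Pramef6 was near the limit of detection. It had 0 and 2 reads in the control and 5 and 6 reads in the lactate libraries. The ratio of the pooled reads, corrected for library size, was 5.45 with a 95% exact interval of 1.19 to 50.6. This interval covers counting error only, and with so few reads Pramef6 was left out of the main test over libraries. Of its 50-base sequences, 33.7% are shared with other genes, most of them with Gm13083, another gene of the chromosome 4 cluster.

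Pramel7, the UHRF1 antagonist, stood at 2.60 and 2.90 CPM in control and 4.68 and 4.87 CPM in lactate libraries. The libraries of a group were close and both lactate values were higher. The log2 fold change was 0.79 ± 0.22 with an unadjusted p of 0.00962, and the adjusted p of 0.109 missed the threshold at a depth of 45 to 96 reads per library. Pramel6 stood at 3.82 and 3.11 CPM in control and 3.98 and 5.53 CPM in lactate libraries. Lactate 1 was barely above control 1, and the log2 fold change of 0.46 ± 0.26 did not pass (adjusted p = 0.344). The spread of Pramel6 within the lactate group, 0.47 on the log2 scale, was as large as its difference between the groups.

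Dppa3 had the largest positive fold change of the members tested. It had 71 and 37 reads in control and 142 and 90 in lactate libraries, or 4.11 and 1.95 against 7.64 and 4.56 CPM. Both lactate libraries were above both control libraries, but lactate 2 exceeded control 1 only slightly. The log2 fold change was 1.02 ± 0.41, 2.02-fold higher with lactate, with an unadjusted p of 0.0473 and an adjusted p of 0.210. Single libraries moved this value. It was 1.62 without control 1 (adjusted p = 0.126), 0.56 without control 2 (adjusted p = 0.506), 0.57 without lactate 1 (adjusted p = 0.400) and 1.34 without lactate 2 (adjusted p = 0.00232), and only the last passed the call. The way of counting mattered for this gene. RSEM kept 0.662 and 0.676 of the raw reads in control and 0.845 and 0.800 in lactate libraries, where the median gene kept between 0.806 and 0.817. On RSEM expected counts the log2 fold change was 1.31 (adjusted p = 0.168). Of the 50-base sequences of Dppa3, 16.5% occur in other genes, mainly in the pseudogene Dppa3-ps, which had at most 1 raw read.

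Dppa2 and Dppa4, the activators of Dux, differed little between the groups. Dppa2 stood at 72.2 and 54.8 CPM in control and 77.2 and 68.3 CPM in lactate libraries, and its groups overlapped. Its log2 fold change was 0.20 ± 0.17 (adjusted p = 0.547). Dppa4 stood at 46.5 and 61.6 CPM in control and 52.2 and 66.9 CPM in lactate libraries, again with overlap, and its log2 fold change was 0.14 ± 0.20 (adjusted p = 0.729). The sign of the Dppa4 value turned without control 1 (−0.067) or without lactate 2 (−0.056). The FPKM ratio of Dppa2 to Dppa4 was 1.21 in control 1 and 1.17 in lactate 1, and 0.660 in control 2 and 0.787 in lactate 2. The ratio therefore differed more between the libraries numbered 1 and 2 than between the groups. Of the 50-base sequences of Dppa2, 29.1% occur in other genes, most of them in Gm9788, and of those of Dppa4 31.3%, most of them in Gm14058.

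Dppa5a, the most abundant member, had the largest difference between libraries of one group, in the lactate group; between the control libraries Dppa3 differed more (−1.07 on the log2 scale, control 2 minus control 1). It stood at 542 and 982 CPM in control and 564 and 1388 CPM in lactate libraries. Lactate 1 lay near control 1, well below control 2, and the groups overlapped. The log2 fold change of 0.36 ± 0.46 did not pass (adjusted p = 0.695), turned to −0.029 without control 1 and to −0.44 without lactate 2, and was 0.84 without lactate 1, with an adjusted p of 0.0338. Between the libraries of a group, library 2 exceeded library 1 by 0.86 on the log2 scale in control and by 1.30 in lactate cells. Taken in log2(CPM + 1), these differences were larger than those of 99.1% and 99.7% of the tested genes. The libraries numbered 2 also had the lower mitochondrial share, and the part of this in the Dppa5a values was not tested. The transcript is short. Between libraries 2 and 1, the 2085 tested genes with an RSEM length under 700 bases had median differences in log2(CPM + 1) of 0.067 in control and 0.090 in lactate cells. Over all tested genes these medians were 0.012 and 0.0078. The part of transcript length in the Dppa5a values was not tested.

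**Figure D3:**
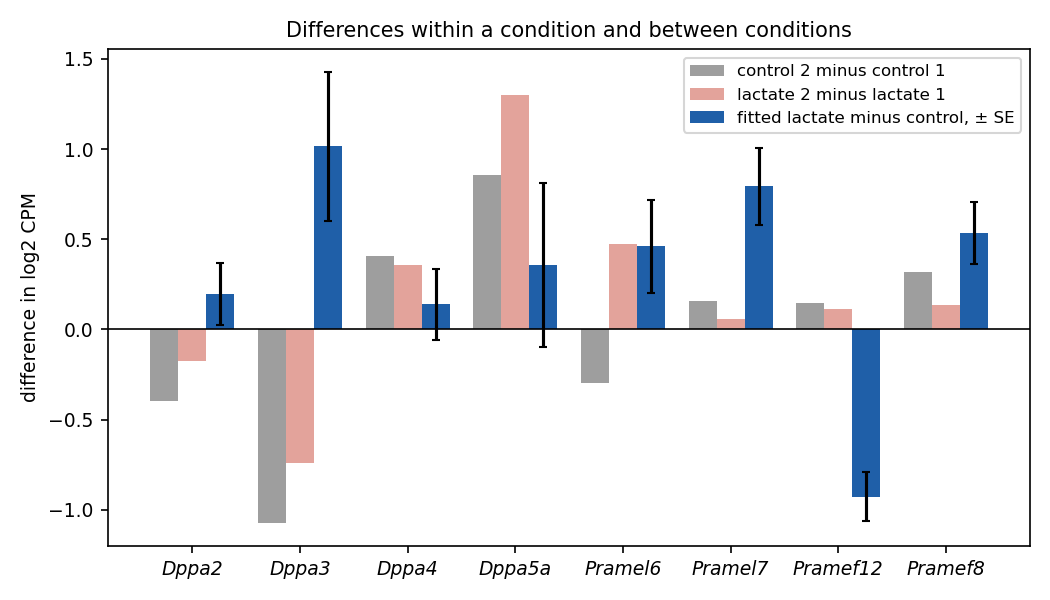
Differences in log2 CPM (y axis) for 8 members: control 2 minus control 1 in grey, lactate 2 minus lactate 1 in pink, and the fitted difference of lactate minus control with its standard error in blue. For Dppa5a both within-group bars are taller than the bar between groups, while for Pramef12 and Pramel7 the bar between groups is much the larger.

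Dppa5a has near copies in the genome, and 38.6% of its 50-base sequences occur in 9 other genes. The pseudogene Dppa5c had 17 and 46 reads in control and 23 and 61 in lactate libraries, which is 1.81 to 2.47 reads per 1000 reads of Dppa5a. RSEM gave Dppa5c no reads in any library. The reads counted on Dppa5c thus followed those of Dppa5a in every library, and whether they come from Dppa5a was not tested.

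The pattern over the 4 libraries was compared between Dppa5a or Dppa3 and 14551 genes, as the root mean square distance of centred log2(CPM + 1). The added 1 shrinks the differences of genes with low CPM. The named genes nearest to Dppa5a were Rpl9-ps7, a ribosomal protein pseudogene, at 0.0057 and Rps20, a ribosomal protein of the small subunit, at 0.0403. Rpl9-ps7 stood at only 3.30 and 6.80 CPM in control and 3.50 and 9.94 CPM in lactate libraries, where the added 1 matters. Rps20 stood at 287 and 562 CPM in control and 306 and 771 CPM in lactate libraries, so it too was high in both libraries numbered 2. The genes nearest to Dppa3 were Klf5, a naive pluripotency factor, at 0.0627 and Spag16, a sperm flagellum gene, at 0.0692. Spag16 stood at 1.10 and 0.37 CPM in control and 2.96 and 1.52 CPM in lactate libraries. Its fitted log2 fold change was 1.62, against 1.02 for Dppa3. Klf5 stood at 211 and 118 CPM in control and 390 and 238 CPM in lactate libraries, and was high in the libraries numbered 1. These likenesses rest on 4 libraries, whose depth and mitochondrial share are common to all genes.

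The other genes of both families were taken from a list of 18 symbols, of which 6 passed the count filter. None was called by edgeR or DESeq2. A log2 fold change above 0 was found for 5 of 6, against 9522 of 18661 genes, and the median was 0.37. The 6 include the antisense gene Pramef12os, which was the one below 0, and the pseudogene Dppa5c, so they are not 6 separate family genes. At an unadjusted p under 0.05 there were 2, both higher, where 11.7% of all genes were higher and 11.4% lower. Pramel1, next to Pramef8 on chromosome 4, stood at 2.54 and 2.32 CPM in control and 5.59 and 4.71 CPM in lactate libraries. Its log2 fold change was 1.08 ± 0.23 (adjusted p = 0.0688), a difference that just missed the threshold. Pramef25 had 9 and 3 reads in control and 18 and 22 in lactate libraries, with a log2 fold change of 1.63 ± 0.52 (adjusted p = 0.140). It passed the count filter only through the lactate libraries, so the filter favoured a higher value. Dppa1 did not pass the count filter. It had 1 and 2 reads in control and 14 and 9 in lactate libraries, a ratio of 7.60. The 95% exact interval of 2.29 to 39.5 again covers counting error only. Of the genes of this list left out by the filter, only Dppa1 was given an interval, so its direction adds no support.

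A further 22 Prame genes carry other symbols in the files and were found through the RefSeq synonyms; this list was added after values had been seen. Of these, 3 were tested and 0 were called by edgeR. DESeq2 called 1, Gm12794, higher, against 1.14% of all genes. An unadjusted p under 0.05 was reached by 2, both higher, where 11.7% of all genes were higher. Gm12794 (Pramel19 in RefSeq) had 1 and 13 reads in control and 38 and 43 in lactate libraries, with a log2 fold change of 2.44 ± 0.64 (adjusted p = 0.101). It too passed the count filter only with the lactate libraries, so the filter favoured a higher value. Gm13119 had 0.90 ± 0.35 (adjusted p = 0.197). Gm13128 stood at between 22.2 and 24.0 CPM in all 4 libraries, and its log2 fold change was −0.049 ± 0.15.

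**Figure D4:**
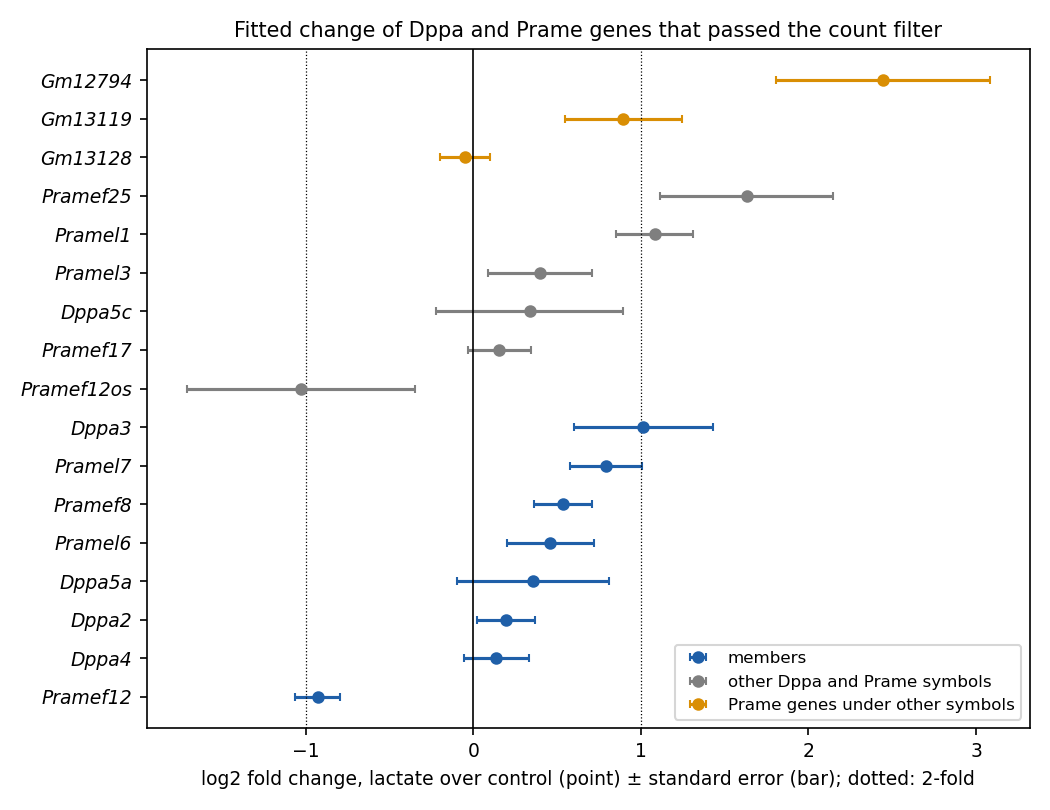
Fitted log2 fold change of lactate over control (x axis; points, with bars of 1 standard error) for the 8 tested members in blue, 6 other Dppa and Prame symbols in grey and 3 Prame genes under other symbols in orange; dotted lines mark a 2-fold change. Most points lie to the right of 0, and Pramef12 and its antisense gene Pramef12os lie farthest to the left.

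Genes that act beside the members were read from chosen lists, in none of which edgeR called a gene. DESeq2, which called 1.14% of all genes higher and 0.868% lower, called 7 of the 14 tested Dux and 2-cell genes higher and 1 of 11 primordial germ cell genes, Dnd1, lower. Of 13 genes of the UHRF1 axis, on which Dppa3 and Pramel7 act, 5 had a log2 fold change above 0 and the median was −0.14. At an unadjusted p under 0.05 there were 3, all lower, where 11.4% of all genes were lower and 11.7% higher. The list is too short for this count to be read as a result about the axis. Uhrf1 itself stood at 753 and 886 CPM in control and 579 and 578 CPM in lactate libraries, with a log2 fold change of −0.50 ± 0.15 (adjusted p = 0.129). The de novo DNA methyltransferase gene Dnmt3b had −0.59 ± 0.12 (adjusted p = 0.0688). Both missed the threshold after correction, as did Dnmt1, the maintenance methyltransferase gene.

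Of 20 Dux and 2-cell genes, to which Dppa2 and Dppa4 are known to give access, 14 were tested. All 14 had a log2 fold change above 0, with a median of 1.41. An unadjusted p under 0.05 was reached by 13, all higher, where 11.7% of all genes were higher. The list was written with earlier results of these data known and holds genes that the paper reported as raised, such as Zscan4 genes and Sp110. Usp17la, with 7 reads in each control library, and Usp17ld, with 4 and 3, passed the count filter only through the lactate libraries. Usp17lb (6 and 12 control reads), Usp17le (15 and 9) and Zscan4b (9 and 22) also passed only with the lactate libraries. For such genes the filter favoured a higher value. The count and the median are thus a description and add no support. The smallest p-values belonged to Zscan4d, at 1.46 ± 0.23 (adjusted p = 0.0516), and Usp17la, at 2.16 ± 0.37 (adjusted p = 0.0539). Duxf3, the Dux gene in the files, had 2 to 5 reads and was not tested. Dppa2 and Dppa4 had fold changes well below the median of this list. That difference was not itself tested and depends on how the list was chosen.

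The 16 naive pluripotency factors had a median log2 fold change of 0.050, with 9 above 0. At an unadjusted p under 0.05 there were 6 higher and 2 lower. Among all tested genes 11.7% were higher and 11.4% lower at this limit, for this list and those that follow. The smallest p-values of the higher factors were those of Sox2 at 0.56 ± 0.14 (adjusted p = 0.0888) and Zfp42 at 0.52 ± 0.14 (adjusted p = 0.112). The lower factors were Prdm14 at −0.33 ± 0.13 and Klf2 at −0.34 ± 0.14. The other germline genes were mixed as well. Of 23 oocyte and maternal-effect genes, 10 were tested, 6 had a log2 fold change above 0, and the median was 0.26, with Nlrp4f, lower at −0.43 ± 0.17, the only one with an unadjusted p under 0.05. All 11 primordial germ cell genes were tested, with a median of 0.26. Of these, 4 were higher and 3 lower at an unadjusted p under 0.05, among them Prdm1, a specification factor, at 0.69 ± 0.14 (adjusted p = 0.0688) and the helicase gene Ddx4 at 0.69 ± 0.17 (adjusted p = 0.0903), against Ifitm3 at −0.78 ± 0.18 (adjusted p = 0.0808) and Dnd1 at −1.19 ± 0.38 (adjusted p = 0.140).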

How the data were processed

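RNA-seq of 4 libraries was analysed, 2 control and 2 lactate, grouped by the treatment given per the labels. The authors trimmed reads with cutadapt 1.16, mapped them to mm10 with STAR and deposited raw read counts on 55335 genes of GENCODE release M23 and 1153 transposable element families, which were not used here. For each library they also deposited the expected counts, TPM and FPKM values from RSEM. The version of RSEM and the strand setting are not given in the sources used here. Reads in regions shared by near copies can be lost in raw counts and are split by a model in RSEM.

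The raw counts were fitted in R 4.3.3 with edgeR 4.0.16 (TMM factors from 0.9585 to 1.043, filterByExpr by condition, glmQLFit and glmQLFTest, Benjamini-Hochberg over 18661 genes), with no replicate term. The standard error was taken from the fold change and the F statistic. The script was tested on simulated data. DESeq2 1.42.0 and limma 3.58.1 on log2(FPKM + 1) served as alternatives, beside other scalings, filters and the omission of each library. No FPKM or TPM value entered the main test. Libraries of one group differed by more than sampling noise. Sharing of 50-base sequences was counted over GENCODE release M21 transcripts. Genes outside the members were named where called or where the unadjusted p was under 0.05 within the families, and otherwise as up to 2 with the smallest p per direction and list. Some genes, among them Dppa1, were named outside this rule. The members, lists and rules were chosen with earlier results of these data known.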

Additional observations from a re-analysis of the deposited data

How the results depend on the processing

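Of the fold changes of the 8 tested members, 129 of the values under alternatives kept both their sign and their side of the call. The sign turned for Dppa4, which ranged from −0.067 to 0.35 as single libraries were left out and stood at −0.067 without control 1 and −0.056 without lactate 2, and for Dppa5a, which ranged from −0.44 to 0.84 and stood at −0.029 without control 1. The cause was not tested. The count of members called higher ranged from 0 to 1 as libraries were left out, 1 being Dppa3 without lactate 2. The count of members called lower was 1, Pramef12, on the adjusted p alone.

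A replicate block, in which libraries with the same number are paired, called 1 member higher, Dppa3, both with edgeR (1.02, adjusted p = 0.000117) and with DESeq2 (1.05, adjusted p = 0.0248), and changed no other call of a member at the 2-fold limit. On the adjusted p alone the block put 5 members higher with edgeR (Dppa2 at 0.0195, Dppa3, Dppa5a at 0.00660, Pramel7 at 0.00182 and Pramef8 at 9.25e-05) and 2 with DESeq2 (Dppa3 and Pramef8 at 0.0118), where 8297 and 3338 of 18661 genes passed in either direction. Libraries of the same number deviated together (r = 0.686 over genes), but with 2 pairs and no label on what a number stands for, the numbers do not establish pairs. With the replicate block 761 genes were called higher and 395 lower by edgeR and 272 and 197 by DESeq2.

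Over all genes, 103 were called higher and 65 lower. DESeq2 without a block called 213 and 162, no filter on low counts 482 and 325, and RSEM expected counts 27 and 17. Library totals alone called 40 lower and raised the share of higher calls from 61.3% to 73.0%, with a shift of the median fold change of 0.067. As single libraries were left out, the counts ranged from 45 to 502 higher and from 39 to 367 lower, the fewest without control 1 and the most without lactate 2. The lone library of a group was then assumed to vary like the others. limma on log2(FPKM + 1), on log2(FPKM + 0.1) and without a filter called 0 genes in either direction, with 2914, 2954 and 3419 genes at an unadjusted p under 0.05. Depth limits Pramef6 and Dppa1, which did not pass the count filter of the main test. Their values in fits without that filter are not given here. Depth also leaves Dppa3, Pramel6 and Pramel7 with few reads per library.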
